A study of Mus musculus with 6 samples.

Results

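The genes described here encode the proteins of the cytosolic ribosome, measured in splenic T cells of mice that had received a bone marrow transplant and then rapamycin or saline. Members were all genes whose symbol is Rpl or Rps followed by digits and at most a letter or an l, together with Rplp0, Rplp1, Rplp2 and Rpsa, read from array probe sets that name exactly 1 gene symbol. Kinases of the Rps6k family and pseudogene symbols were left out. The rule gave 59 genes of the 19938 genes tested, 22 of the small and 37 of the large subunit. The rule goes by gene symbol and uses no measured value, but it was chosen with earlier results of these data known. Where a gene had several probe sets, the one with the highest average across the 6 arrays stood for it.

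The ribosome is built from a small subunit that reads the messenger RNA and a large subunit that joins amino acids, each made of ribosomal RNA and a fixed set of proteins. Most of these proteins are encoded by messenger RNAs that start with a C followed by a run of C and T bases, the terminal oligopyrimidine (TOP) tract, through which the kinase complex mTORC1 controls their translation. Rapamycin inhibits mTORC1, and dividing T cells raise ribosome production through it. Arrays measure the amount of these messenger RNAs, not their translation.

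All 6 mice were lethally irradiated recipients of the F1 hybrid strain B6D2F1/J that were given bone marrow of B6 mice from which T cells had been removed. The marrow was given alone or together with B6 spleen cells, without a record per mouse in the sample labels. Rapamycin at 1.5 mg/kg was injected into the peritoneum on alternate days until day 10 (n = 3 mice), and controls were injected with phosphate-buffered saline, PBS, on the same schedule (n = 3 mice). On day 10 CD3-positive cells were sorted from each spleen, and their RNA was hybridised to 1 array per mouse. Expression is given on the log2 scale, where 1 unit is a factor of 2, and every difference is rapamycin minus PBS.

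To show the TOP tract, 30 bases around the annotated transcription start are given for 8 members, from 12 bases before the start to 18 bases from it on. Sequences and positions are those of RefSeq on mouse assembly GRCm38.p6, 5′ to 3′ on the gene's strand. The first 6 were picked as examples with the motif and the last 2, Rps25 and Rpl5, as members with separate groups and without it, so the 8 do not show how common it is. Capitals mark a run of C and T bases that begins with a C exactly at the annotated start and is at least 5 bases long.
Rps6, chr4:86857350-86857379, minus strand: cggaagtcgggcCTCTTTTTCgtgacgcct
Rps15a, chr7:118116130-118116159, minus strand: tctttctgccatCTTCCCTCgccggtgagt
Rps18, chr17:33955648-33955677, minus strand: gtcacttccgctCTCTCTTCCacaggaggc
Rpl14, chr9:120571505-120571534, plus strand: cgggccctctctCTTCTCgctgagcgccgc
Rpl28, chr7:4792953-4792982, plus strand: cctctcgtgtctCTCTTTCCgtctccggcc
Rpl38, chr11:114668568-114668597, plus strand: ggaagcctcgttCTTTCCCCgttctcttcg
Rps25, chr9:44407702-44407731, plus strand: ttccgacatcttagcgaggctgctgtggtc
Rpl5, chr5:107900516-107900545, plus strand: cacgtcgcttgcgtgctggtggtgctacat
The run was 9 bases long in Rps6 and Rps18, 8 in Rps15a, Rpl28 and Rpl38 and 6 in Rpl14, whereas Rps25 and Rpl5 had no such run at the annotated base. Of the 47 members with a start site in the table, 10 carried the motif at an annotated start, which is 21.3% of these genes. Among all protein-coding genes with a start site there, 467 of 17492, or 2.67%, carried it. With a run of at least 7 bases starting at any C up to 10 bases to either side of an annotated start, the counts were 20 of 47 members (42.6%) and 2542 of 17492 genes (14.5%). The strand searched was the gene's own. An annotated start can lie some bases away from the one used in T cells, so a missing match says only that these letters are not in this window.

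No ribosomal protein gene passed the test in either direction. In limma's moderated test across all genes, 0 of the 59 members passed an adjusted p of 0.05, where 1 of the 19938 genes tested, or 0.00502%, passed. At an unadjusted p of 0.05, 2 members were higher, Rps4l and Rps15a, and 0 were lower, where 4.67% of all genes passed it, 1.6% higher and 3.07% lower. Differences were small, with a lowest value of -0.13 in Rpl14 and a highest of 0.32 in Rps4l. In 46 of the 59 members the absolute difference was 0.1 or less, against 67.1% of all genes tested. The 95% interval of each of the 59 differences lay inside a 1.5-fold change in either direction, and for 38 of them inside a 1.2-fold change. Of all 19938 genes tested, 19043 had intervals inside a 1.5-fold change and 6961 inside a 1.2-fold change.

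**Figure D1:**
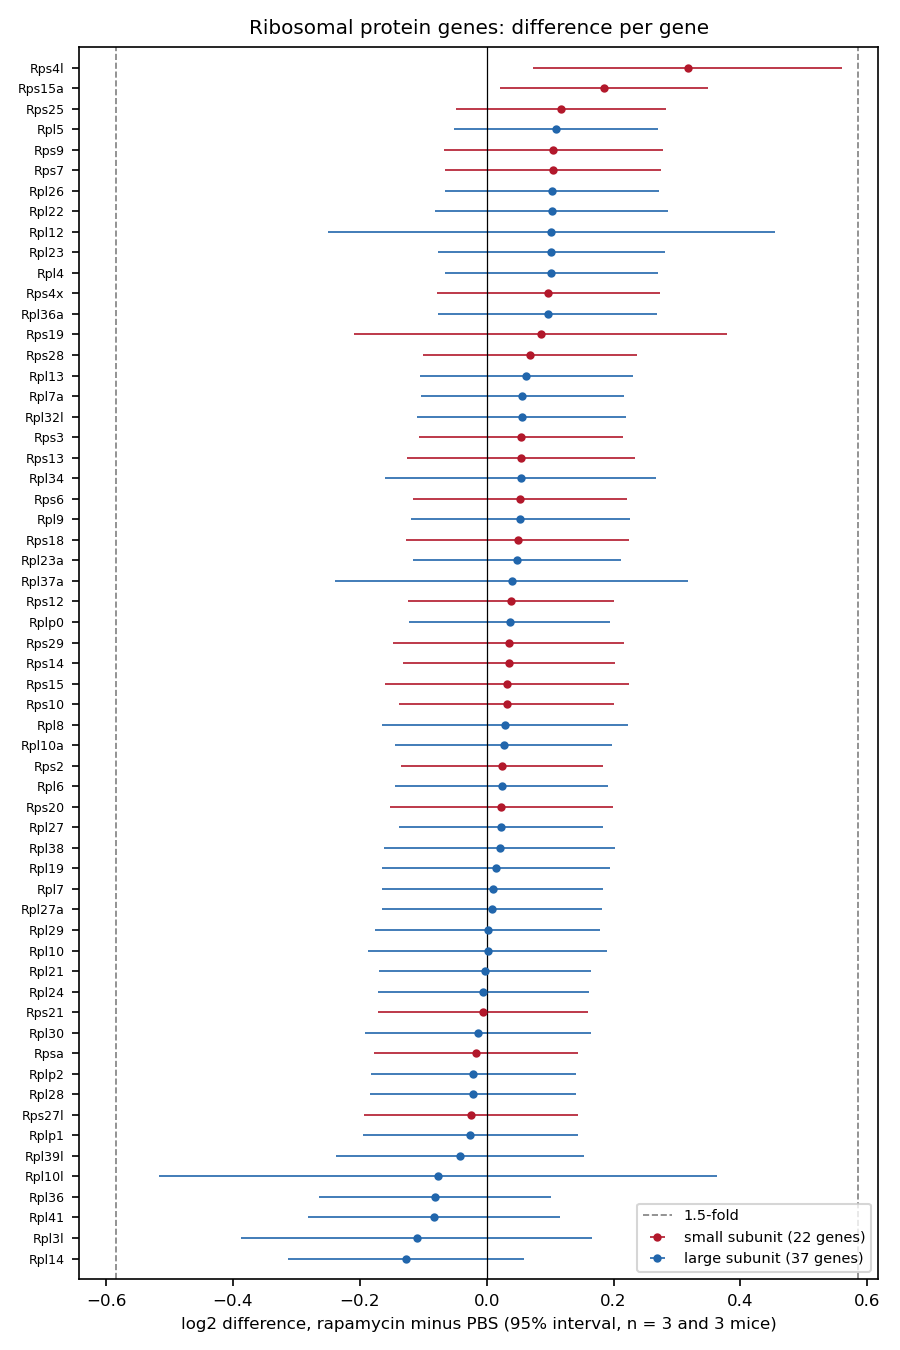
Log2 difference, rapamycin minus PBS, of each of the 59 ribosomal protein genes with its 95% interval (3 mice per group), ordered by size; red marks the small and blue the large subunit, and dashed lines mark a 1.5-fold change. All intervals lie between the dashed lines, the intervals of Rps4l and Rps15a alone leave out 0, and Rpl14 is the lowest gene at -0.13.

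Below that threshold more members had a positive than a negative difference. Of the 59 genes 44 were positive, or 74.6%, where 44.7% of all genes tested were positive. The median difference of the members was 0.03, with quartiles of 0.00 and 0.07, and that of all genes was -0.01. The lowest rapamycin value exceeded the highest PBS value in 12 members, or 20.3%, where 3.14% of all genes did so, and all rapamycin values lay below all PBS values in 1 member, Rpl14, where 6.28% of all genes did so. These counts hold for the probe set that stood for each gene. Of the 12, Rps9, Rps28, Rplp0 and Rpl7a each had another probe set with overlapping groups. Conversely Rps6 and Rps4x, not among the 12, were separate on other probe sets. Members share each mouse's array, and many of their probes also match further copies, so they are not independent measurements. No test of the list was made. The median rested largely on rapamycin replicate 2: without that mouse it was 0.01 and 38 of 59 members were positive, and without rapamycin replicate 1 it was 0.06 with 47 positive. Single differences rested on single mice too: of the 36 members named, 28 moved by over 1.5 times or changed sign when some mouse was left out.

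The rapamycin mice differed among themselves by as much as the groups did. Taken against each gene's PBS mean, the median deviation of the 59 members was -0.01 in PBS replicate 1, 0.01 in PBS replicate 2 and -0.01 in PBS replicate 3. It was 0.01 in rapamycin replicate 1, 0.06 in rapamycin replicate 2 and 0.03 in rapamycin replicate 3. Thus rapamycin replicate 1 lay within the PBS mice, and the other rapamycin mice lay above them. Rapamycin replicate 2 held the highest value of the 6 arrays in 29 members (49.2%, against 16.9% of all genes). Rapamycin replicate 1 held the lowest in 16 members (27.1%), a share near the 23.0% of all genes. PBS replicates 1, 2 and 3 held the lowest in 22.0%, 15.3% and 23.7% of members, against 16.2%, 9.01% and 17.0% of all genes. Over all genes the median deviations of the rapamycin mice were between -0.02 and -0.01. The spread between mice of a group was small in these genes: the median SD of a member was 0.04 with PBS and 0.06 with rapamycin, against 0.10 and 0.11 over all genes tested.

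**Figure D2:**
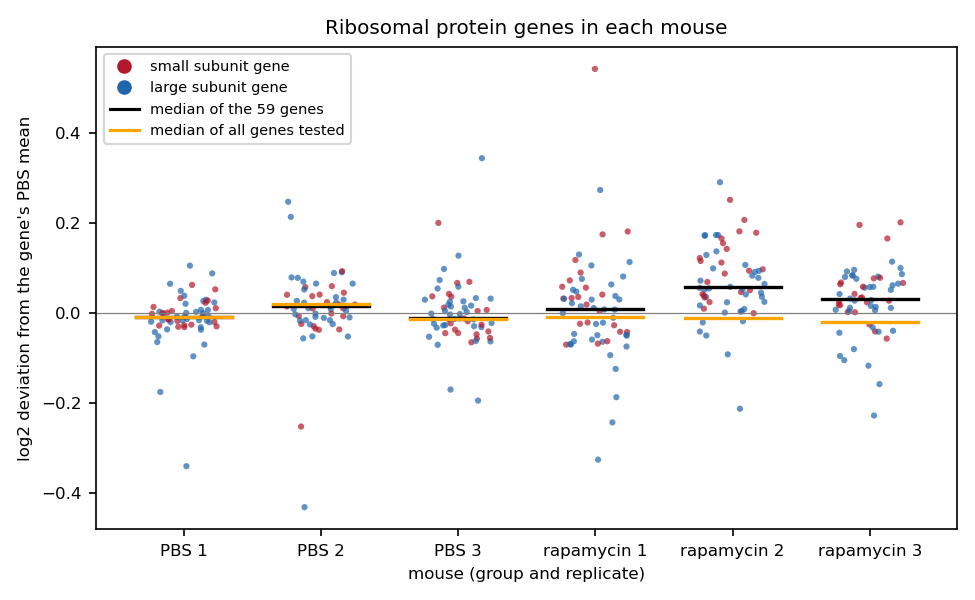
Deviation of each of the 59 genes from its own PBS mean (log2) in each of the 6 mice; red points are small subunit genes, blue points large subunit genes, black bars the median of the 59 genes and orange bars the median of all genes tested. The black bar is highest in rapamycin replicate 2 at 0.06 and lies at 0.01 in rapamycin replicate 1; points are spread sideways for visibility.

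Markers of T cells and of other cells varied between mice as well, and 0 of them passed the test. Of 10 T cell markers 8 were measured, and 2 of these were positive. The mean of their log2 levels lay between 11.04 and 11.24 in the PBS mice and, in rapamycin replicates 1, 2 and 3, at 11.04, 11.21 and 11.06. Cd3e, a chain of the T cell receptor complex, stood at 12.87 ± 0.05 with PBS and 12.84 ± 0.08 with rapamycin (SD, n = 3 each). Cd5, a surface protein that damps T cell receptor signals, had the lowest p of that list and differed by -0.19 (SE 0.08), with all rapamycin values below all PBS values. Cd2, an adhesion receptor, had the lowest p among the positive T cell markers, at 0.08 (SE 0.11).

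All 12 granulocyte markers were positive, with overlapping groups in each, and Elane, neutrophil elastase, had the lowest p at a difference of 0.61 (SE 0.30). Their mean log2 level was 8.06 to 9.51 in the PBS mice and 9.95, 8.71 and 9.22 in rapamycin replicates 1, 2 and 3. Of 7 measured erythroid markers 6 were positive, with means of 6.42 to 6.60 with PBS and of 6.68, 6.95 and 6.58 in the same order. Epb42, a protein of the red cell membrane skeleton, differed by 0.31 (SE 0.14) and Klf1, an erythroid transcription factor, by -0.03. Among the rapamycin mice, replicate 2, which had the highest ribosomal protein values, had the highest mean of T cell, erythroid, B cell and natural killer markers. It had the lowest mean of granulocyte markers and of monocyte and macrophage markers. PBS replicate 3 had the highest T cell mean of the 6 mice, 11.24, and the lowest granulocyte mean, 8.06. The median deviation of the ribosomal protein genes in PBS replicate 3 was -0.01.

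Of 9 measured monocyte and macrophage markers 3 were positive, with means of 8.08 to 8.68 with PBS and 7.86 to 8.28 with rapamycin. Spic, which red pulp macrophages need to develop, differed by -1.34 (SE 0.19) with separate groups and an adjusted p of 0.408 in limma's test. Lyz2, lysozyme, differed by 0.29 (SE 0.11), also with separate groups. Of 7 measured B cell markers 4 were positive, with means of 5.57 to 5.70 and 5.54 to 5.66. Cd79b, a chain of the B cell receptor complex, differed by -0.54 (SE 0.11) with separate groups and an adjusted p of 0.747 in limma's test, and Blk, a B cell kinase, by 0.06. Of 7 measured natural killer markers 2 were positive, with means of 5.88 to 6.40 and 5.97 to 6.16. Ncr1, an activating receptor, differed by -0.24 (SE 0.08) with separate groups, and Klra8, another receptor, by 0.27 (SE 0.12). The part of these cells in the ribosomal protein values was not tested. In sorted bulk samples, fewer cells of a type and less RNA per cell cannot be told apart.

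Among the small subunit genes 19 of 22 were positive, and their median difference was 0.05. In 6 of them the rapamycin values lay above all PBS values, namely Rps4l, Rps15a, Rps25, Rps9, Rps28 and Rps3, which is 27.3% where 3.14% of all genes did so. The other side held 3 genes, Rps27l, Rpsa and Rps21, with differences between -0.02 and -0.01, of which that of Rps21 turned positive when arrays were rescaled.

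Rps4l, an autosomal relative of the X-linked gene Rps4x, measured 6.55, 6.55 and 6.65 in the PBS mice and 7.13, 6.79 and 6.79 in the rapamycin mice. The groups did not overlap, and rapamycin replicate 1 stood apart from the others of its group. Rapamycin exceeded PBS by 0.32 (SE 0.11, 95% interval 0.07 to 0.56; limma's adjusted p was 0.982), and by 0.20 without rapamycin replicate 1. A further probe set of Rps4l measured 6.11, 6.07 and 6.14 with PBS and 6.15, 6.09 and 6.09 with rapamycin, a difference of 0.00, so the 2 probe sets of this gene did not show the same difference. Rps4x itself, a core protein of the small subunit, measured 12.24, 12.28 and 12.19 with PBS and 12.41, 12.33 and 12.26 with rapamycin. Its difference was 0.10 (SE 0.08), the groups overlapped, and rapamycin replicate 1 was again the highest mouse. All 5 probe sets of Rps4x were positive, from 0.09 to 0.13, and on some of them the groups were separate.

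Rps15a, which carries the TOP run shown above, measured 9.20, 9.28 and 9.19 with PBS and 9.41, 9.40 and 9.42 with rapamycin. The rapamycin mice lay within 0.02 of each other and all above the PBS mice. The means lay 0.18 apart (SE 0.07, 95% interval 0.02 to 0.35; limma's adjusted p was 0.9998), and between 0.17 and 0.21 apart when any mouse was left out. These values rest on 1 probe set. Probe sets that name Rps15a together with other symbols had smaller differences, of 0.07 and 0.09. Rps25, a protein used by some viral RNAs to start translation, measured 11.37, 11.43 and 11.38 with PBS and 11.48, 11.49 and 11.56 with rapamycin, and its 6 probe sets all had positive differences, of 0.09 to 0.13. The groups again did not overlap, with a difference of 0.12 (SE 0.07).

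Rps9, which lies near the path of the messenger RNA in the small subunit, measured 11.82 ± 0.04 with PBS and 11.92 ± 0.07 with rapamycin (SD, n = 3 each), a difference of 0.11 (SE 0.08) with separate groups. On the other probe set of Rps9 the groups overlapped, at a difference of 0.08. Rps7, a protein that binds the p53 regulator Mdm2 when free of ribosomes, measured 12.31 ± 0.04 with PBS and 12.41 ± 0.06 with rapamycin (SD, n = 3 each), a difference of 0.10 (SE 0.07) with groups that just overlapped. Rps18, which carries a TOP run as long as that of Rps6, measured 12.59 ± 0.01 and 12.64 ± 0.08 (SD, n = 3 each), and its 7 probe sets were all positive, from 0.03 to 0.08. Rps6 is the protein whose phosphorylation by S6 kinase is the usual readout of mTORC1 activity. Its messenger RNA measured 12.78, 12.85 and 12.75 with PBS and 12.87, 12.80 and 12.87 with rapamycin, so the groups overlapped. The difference was 0.05 (SE 0.07, 95% interval -0.12 to 0.22). All 8 probe sets of Rps6 had positive differences, from 0.05 to 0.10. The one that stood for the gene had the lowest, and on each of the others the groups were separate. Rps19, the gene most often mutated in Diamond-Blackfan anaemia, measured 9.58, 9.28 and 9.73 with PBS and 9.51, 9.78 and 9.55 with rapamycin. Its spread within the PBS group, an SD of 0.23, was larger than its difference of 0.09, and the sign turned to -0.04 without PBS replicate 2. Probe sets that name Rps19 together with other symbols had differences of 0.10 and 0.11. Rpsa, also known as a receptor for laminin at the cell surface, differed by -0.02 (SE 0.07), while 4 of its 5 probe sets were positive. Rps21 had 2 probe sets, both negative, and the one that did not represent it had the lowest difference of all 215 single-symbol probe sets of the members, at -0.14.

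Among the large subunit genes 25 of 37 were positive, and their median difference was 0.02. Rapamycin values lay above all PBS values in 6 of them, Rpl5, Rpl26, Rpl4, Rpl36a, Rpl7a and Rplp0 (16.2%, against 3.14% of all genes). They lay below all PBS values in 1 of them, Rpl14 (2.70%, against 6.28% of all genes). Rpl5, which carries the smallest ribosomal RNA into the large subunit and binds Mdm2 when free, measured 12.40, 12.46 and 12.41 with PBS and 12.53, 12.55 and 12.52 with rapamycin. The groups did not overlap, the difference was 0.11 (SE 0.07, 95% interval -0.05 to 0.27), and its 5 probe sets ran from 0.07 to 0.11. Its partner Rpl11 was named only on probe sets shared with another gene and has no value here.

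Rpl4, part of the wall of the exit tunnel for new proteins, measured 12.73, 12.76 and 12.75 with PBS and 12.82, 12.92 and 12.80 with rapamycin, a difference of 0.10 (SE 0.07). Rpl26, which sits at the mouth of that tunnel, had the same difference of 0.10 with separate groups, at 7.80 ± 0.03 and 7.91 ± 0.06 (SD, n = 3 each). Rpl36a measured 11.32 ± 0.03 with PBS and 11.41 ± 0.07 with rapamycin, with PBS and rapamycin values only 0.003 apart at their closest. Rpl23, another Mdm2-binding protein, and Rpl22, which is needed for development of alpha-beta T cells, each differed by 0.10 (SE 0.08) with overlapping groups. Rpl22 measured 6.86, 6.97 and 6.87 with PBS and 7.03, 7.07 and 6.91 with rapamycin.

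Rpl14 was the member with the lowest difference over all 6 mice. It measured 8.70, 8.69 and 8.65 with PBS and 8.44, 8.64 and 8.58 with rapamycin, so the groups did not overlap, with rapamycin replicate 2 only 0.01 below the lowest PBS mouse. The difference was -0.13 (SE 0.08, 95% interval -0.31 to 0.06; limma's adjusted p was 0.9998). It was -0.07 without rapamycin replicate 1, when Rpl41 lay lower at -0.13. Rpl14 carries the TOP run at its start like Rps15a, the highest member apart from Rps4l. Of the 10 members with that motif 6 were positive (median 0.03), and of the 37 members with a listed start but no such run 30 were positive (median 0.05).

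Rpl36 and Rpl41 were the next lowest among the core subunit proteins. Rpl36 measured 11.42, 11.34 and 11.42 with PBS and 11.21, 11.38 and 11.36 with rapamycin, and Rpl41, among the shortest proteins known, 12.40, 12.34 and 12.27 with PBS and 12.35, 12.12 and 12.29 with rapamycin. Both had overlapping groups and a difference of -0.08 (SE 0.08 and 0.09). The difference of Rpl36 was -0.03 without rapamycin replicate 1, and that of Rpl41 was -0.02 without rapamycin replicate 2. All 9 probe sets of Rpl36 were negative, from -0.11 to -0.07. Rpl28, the member with the highest level on its probe set, differed by -0.02 with values of 13.53, 13.51 and 13.53 against 13.45, 13.53 and 13.53. Rpl30 differed by -0.01 on its only single-symbol probe set, a sign that turned when arrays were rescaled. Probe sets that name Rpl30 together with other symbols were all positive, from 0.03 to 0.08. Rpl10a and Rpl38, which have been linked to the translation of particular messenger RNAs, differed by 0.03 and 0.02.

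**Figure D3:**
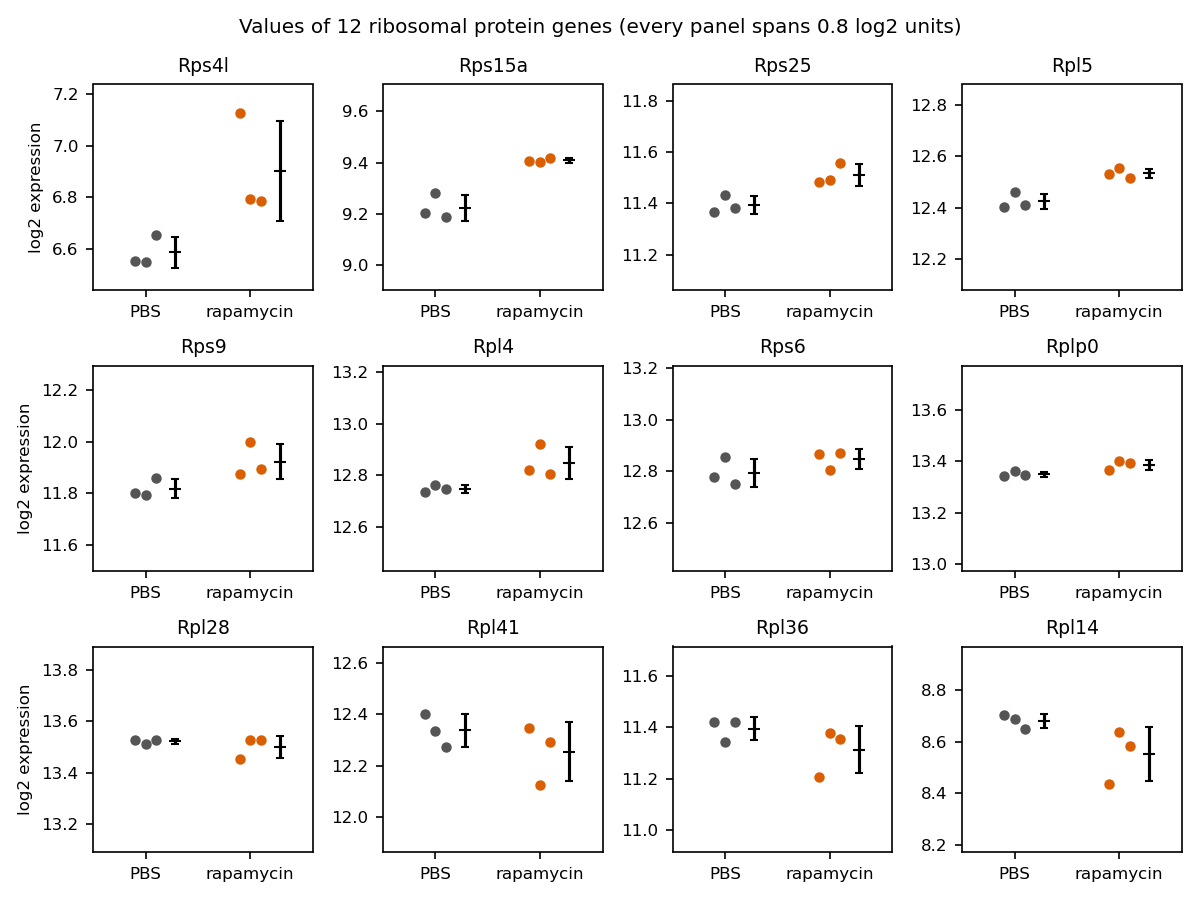
Log2 expression of 12 ribosomal protein genes in the 3 PBS mice (grey) and the 3 rapamycin mice (orange), with group means and SD in black; every panel spans 0.8 log2 units. On the probe set that stood for each gene, groups are separate in Rps4l, Rps15a, Rps25, Rpl5, Rps9, Rpl4, Rplp0 and Rpl14. They overlap in Rps6, Rpl28, Rpl41 and Rpl36.

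The stalk of the large subunit, made of Rplp0, Rplp1 and Rplp2, recruits the factors that drive elongation. Rplp0 measured 13.34, 13.36 and 13.35 with PBS and 13.36, 13.40 and 13.39 with rapamycin. These groups did not overlap, yet the difference was 0.04 (SE 0.07) and the nearest values lay 0.004 apart. On the other probe set of Rplp0 the groups overlapped. Rplp1 differed by -0.03 and Rplp2 by -0.02, each with overlapping groups. The level of Rplp2 was low, with means of 7.21 with PBS and 7.19 with rapamycin.

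Some paralogs with a symbol ending in l stand apart from the core set in where they are made. Rpl3l belongs to striated muscle, Rpl10l and Rpl39l to the testis, and Rps27l is a p53 target. Rpl3l measured 4.48 ± 0.23 with PBS and 4.37 ± 0.11 with rapamycin, Rpl39l 4.003 ± 0.08 and 3.96 ± 0.10, and Rpl10l 4.90 ± 0.40 and 4.82 ± 0.22 (SD, n = 3 each). These levels lay below the array medians of 6.03 to 6.17, and whether the genes were detected was not tested. Rps27l measured 9.66 ± 0.03 and 9.64 ± 0.06. Of the 6 paralogs with a symbol ending in l, Rps4l and Rpl32l were positive and 4 were negative. Without these paralogs, 42 of 53 members were positive and the median was again 0.03.

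Most of these genes had signals near the top of the arrays' range. Of the 59 members 43 had a mean of 11 or more, 44 lay in the top 5% of gene means and 33 in the top 1%. The part of this in the small differences was not tested. Ribosomal protein genes also have many processed copies in the mouse genome. The 59 members had 215 probe sets with only their symbol, up to 14 for Rps12, and 19 of these had the same values on all 6 arrays as another of them. The levels of single members are therefore uncertain where copies share probes. Of the 39 members with at least 2 probe sets, 8 had both positive and negative ones. Of the 156 probe sets that did not represent a gene, 132 were positive, with a median of 0.04. A further 235 probe sets named a ribosomal protein together with other symbols. They were counted without a gene name, and 186 of them (79.1%) were positive, with a median of 0.03 and a range of -0.11 to 0.14. Through these shared probe sets 17 further ribosomal protein genes are on the array, which have no value of their own here.

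**Figure D4:**
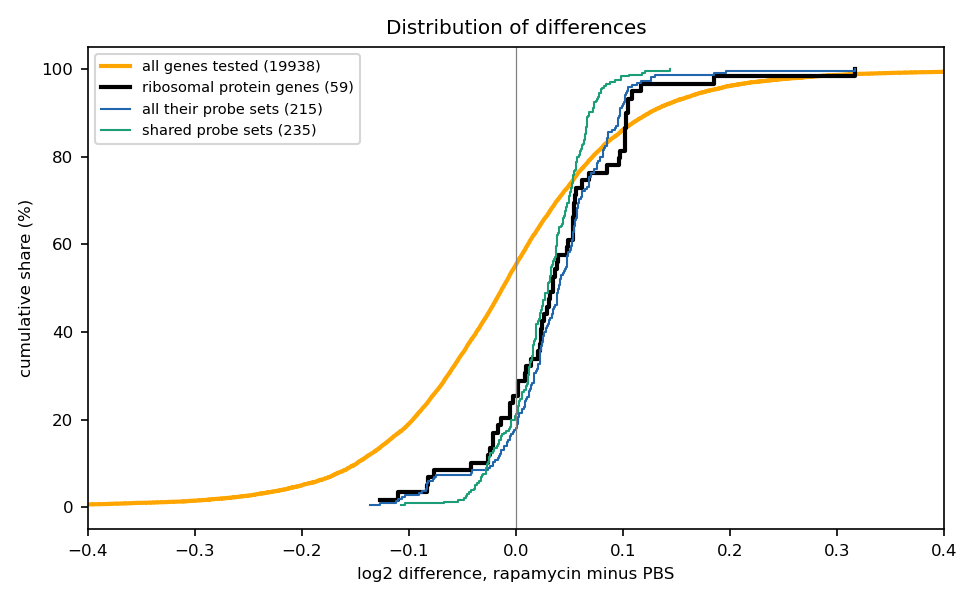
Cumulative share (%) of log2 differences, rapamycin minus PBS, for the 59 ribosomal protein genes (black), all 215 of their probe sets (blue), 235 probe sets that name a ribosomal protein with other genes (green) and all 19938 genes tested (orange). At a difference of 0, 44.7% of all genes and 74.6% of the ribosomal protein genes lie to the right; the axis ends at 0.4 on either side, beyond which some of all genes lie.

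Neighbouring genes of the pathway gave values of the same order. Fau, whose product holds a small subunit protein fused to a ubiquitin-like one, differed by -0.05 (SE 0.08). Rps3a1, a small subunit protein whose symbol has a digit at its end and so falls outside the rule, differed by 0.16 (SE 0.09) at 9.89 ± 0.10 with PBS and 10.05 ± 0.08 with rapamycin (SD, n = 3 each). The large subunit relative Rpl7l1 differed by -0.01. Of a list of 20 other translation genes with TOP messenger RNAs, 18 were measured, 11 were positive, 0 passed, and the median was 0.02. Among them Tpt1, a translationally controlled growth protein, measured 12.95 ± 0.01 and 13.02 ± 0.03 with separate groups, and Pabpc1, the cytoplasmic poly(A)-binding protein, 12.99 ± 0.01 and 13.02 ± 0.01, also separate (SD, n = 3 each). Eif3f, an initiation factor subunit, had the highest difference of that list at 0.10, and Nap1l1, a histone chaperone, the lowest at -0.09.

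Of 20 genes on the route from mTORC1 to these messenger RNAs and to Rps6, 17 were measured, 9 were positive, 0 passed, and the median was 0.00. Larp1, the protein that binds the TOP tract, differed by 0.03 (SE 0.09), and Mtor by -0.07 (SE 0.10). Pdcd4, an inhibitor of initiation that S6 kinase marks for breakdown, differed by -0.24 (SE 0.15), by -0.12 without rapamycin replicate 1 and by -0.41 without rapamycin replicate 3. Tsc2, an inhibitor of mTORC1 signalling, differed by -0.13 (SE 0.08) with all its rapamycin values below the lowest PBS value, and by -0.07 without PBS replicate 1. Rps6ka3, a kinase that also acts on Rps6, differed by 0.10 and Larp4 by 0.11. All 9 dedicated chaperones of ribosomal proteins were measured, 8 were positive, 0 passed, and the median was 0.04. Grwd1, which escorts the protein of Rpl3, differed by 0.11 (SE 0.13), and Pdcd2l by -0.05 (SE 0.10). Rapamycin replicate 2 had the highest mean of the 6 mice in this list too, at 7.92, where the other mice lay between 7.76 and 7.83.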

How the data were processed

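RNA of CD3-positive spleen cells from 6 mice was measured on 1 array each. The deposited values are log2 expression that the authors made with Affymetrix Expression Console and RMA, per the submitters' processing notes; the sources used here give no versions, summary level or genome build. RMA includes quantile normalization, which removes a shift shared by most genes. Of 35556 probe sets, 21789 had exactly 1 symbol in the platform's probe table and 1621 several, and the probe set with the highest average stood for a gene.

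Titles gave the groups and replicate numbers and name the samples as biological replicates. All genes were fitted in R 4.3.3 with limma 3.58.1 (lmFit, eBayes, group only), with Benjamini-Hochberg adjustment over 19938 genes and 8.44 moderated degrees of freedom. The fit was tested on simulated data. Precision is limited by having 3 arrays in each group. Figures were drawn with matplotlib 3.10.9.

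Members and lists were chosen with earlier results of these data known. The naming rule took the 12 members with the lowest p on either side of 0, a fixed set of well-known members and paralogs, from each list the gene with the lowest p on either side, Fau, Rpl7l1, Mtor and Larp1. Of the members named, Rps28, Rps3, Rpl7a, Rps18, Rps21, Rpl32l and Rps12, and beside them Rps3a1, Pabpc1, Tpt1, Tsc2, Larp4 and Cd3e, fall outside that rule and were chosen after their values were seen. Alternatives were other scalings, probe set choices, filters, priors and weights, a replicate block and leaving out each mouse.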

Additional observations from a re-analysis of the deposited data

How the results depend on the processing

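No member passed under any of the 16 alternatives run. The count of positive members was 44 to 48 under other scalings, the mean of probe sets, the filter on low values, all probe sets in 1 fit, array weights, another prior and the replicate block, and the median 0.03 to 0.05. Without single mice it was 38 to 47, and the median 0.01 to 0.06. The filter on low values left 56 members, of which 44 were positive. The share of all genes with a positive difference, 44.7% above, depended on scaling too. It was 51.7% with centred arrays and 51.3% with cyclic loess, and 42.8% to 49.7% without single mice. The member rule with at most 1 letter gave the same 59 genes. With the shared probe sets added, 230 of 294 were positive.

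The count of all genes called, 1, was 0 with all probe sets in 1 fit and 0 with the replicate block, and 0 to 7 without single mice, with 7 reached without rapamycin replicate 1. The replicate numbers belong to separate mice by title, so they were not taken to pair the mice. Deviations of same-numbered mice correlated over genes at 0.0861, -0.192 and 0.195, and those of other pairs at -0.438 to 0.365. With 3 mice in each group these correlations cannot decide pairing. The count of members at an unadjusted p under 0.05 was 1 in place of 2 with the block and the mean of probe sets. It was also 1 without PBS replicate 1, PBS replicate 3, rapamycin replicate 2 or rapamycin replicate 3, and 2 under the other 10 alternatives. Of 63 single genes followed, 16 changed sign in some setting, none called, and 49 moved by over 1.5 times without some mouse. Rpl30 turned to 0.0026 with centred arrays and 0.0044 with cyclic loess, Rpl7l1 to 0.0075, 0.0083 and, with array weights, 0.034, Pdcd2l to 0.016 with array weights Rpsa to 0.020 with the mean of probe sets, and Rps21 to 0.011, 0.00034 and 0.012 with centred arrays, cyclic loess and array weights. Without single mice the differences ranged from -0.043 to 0.038 in Rpl30, -0.081 to 0.083 in Rpl7l1, -0.12 to 0.059 in Pdcd2l, -0.084 to 0.0090 in Fau, -0.012 to 0.18 in Grwd1, -0.023 to 0.10 in Larp1, -0.14 to 0.0018 in Mtor, -0.29 to 0.095 in Rpl10l, -0.034 to 0.0036 in Rpl28, -0.011 to 0.077 in Rpl38, -0.075 to 0.016 in Rpl39l, -0.21 to 0.013 in Rpl3l, -0.051 to 0.0011 in Rplp1, -0.022 to 0.026 in Rps21 and -0.041 to 0.19 in Rps19. The cause was not tested. Signal over background was not assessed for weakly expressed paralogs.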
